A study of Mus musculus with 12 samples.

Results

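The miR-99/100, miR-125 and miR-10 family was measured here through 7 mature mouse miRNAs: mmu-miR-99a, mmu-miR-99b, mmu-miR-100, mmu-miR-125a-5p, mmu-miR-125b-5p, mmu-miR-10a and mmu-miR-10b. The species prefix is left out from here on. They were chosen by name, as the probes whose name held exactly 1 of these mouse miRNAs, and they make up 7 of the 595 mouse miRNA probes on the array, each printed in 4 spots. The samples were median liver lobes of male B6C3F1 mice, whose age is labelled as 27 to 30 days although the series title calls them adult. In the vehicle group (n = 6) the mice received corn oil on 3 days. In the BaP group (n = 6) they received 150 mg/kg of BaP on the same schedule. BaP is benzo(a)pyrene, a combustion product that liver enzymes convert to metabolites that bind DNA. All 12 livers analysed here were taken 4 h after the last dose. Each array held liver RNA labelled with the dye Hy5 and a pooled reference RNA of 10 mouse tissues (the pool) labelled with Hy3, and no array had the dyes exchanged. A log2 ratio is therefore liver over pool throughout, and a negative value means a lower signal in liver.

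MiRNAs guide Argonaute proteins to messenger RNAs through base pairing that is led by the seed, bases 2 to 8 of the mature strand, and the bound messengers are translated less or degraded sooner. The miR-99/100 and miR-125 families are encoded beside let-7 members in clusters that are conserved across vertebrates, and the miR-10 family lies within the Hox clusters, which pattern the body axis. In mammals miR-99/100 members are known to target Mtor, miR-125 members are the relatives of worm lin-4, and miR-10 members are known for targeting Hox messengers.

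The mature sequences below, from RefSeq on build GRCm38.p6, are shown because the family is defined by its seeds and because several members differ at few bases. They run 5′ to 3′ with the seed in capitals.
mmu-miR-99a: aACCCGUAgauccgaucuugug
mmu-miR-99b: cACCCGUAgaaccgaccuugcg
mmu-miR-100: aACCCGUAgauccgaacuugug
mmu-miR-125a-5p: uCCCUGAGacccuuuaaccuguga
mmu-miR-125b-5p: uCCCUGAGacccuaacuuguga
mmu-miR-10a: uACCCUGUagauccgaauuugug
mmu-miR-10b: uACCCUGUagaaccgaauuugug

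The 7 members carry 3 seeds. MiR-99a, miR-99b and miR-100 share ACCCGUA, miR-125a-5p and miR-125b-5p share CCCUGAG, and miR-10a and miR-10b share ACCCUGU. Counting from 1 at the 5′ end, miR-99a and miR-100 differ by the substitution U16A alone, and miR-10a and miR-10b by U12A alone. MiR-99a and miR-99b differ at 4 positions, A1C, U11A, U16C and U21C. MiR-125a-5p and miR-125b-5p share their first 13 bases and stand at an edit distance of 3. MiR-10a and miR-100 have different seeds but share a run of 11 bases, guagauccgaa, which starts at position 7 of miR-10a and position 6 of miR-100. Probe sequences were not used here, so how far probes of near-identical members bind each other's targets was not tested, and the values of miR-99a and miR-100, and of miR-10a and miR-10b, are uncertain to that extent.

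Of the loci in RefSeq (GRCm38.p6, all on the plus strand), 8 encode the members, since miR-125b-5p comes from a pair of hairpins. Mir99a (mature strand at chr16:77598940-77598961), Mirlet7c-1 and Mir125b-2 (chr16:77646279-77646300) span 47408 bp of chromosome 16 and overlap no other annotated gene. Mir100 (chr9:41531437-41531458), Mirlet7a-2 and Mir125b-1 (chr9:41581940-41581961) span 50578 bp of chromosome 9 inside Mir100hg, the long non-coding host gene. Mir99b (chr17:17830194-17830215), Mirlet7e and Mir125a (chr17:17830817-17830840) lie within 692 bp of chromosome 17 inside the protein-coding gene Spaca6. Mir10a (chr11:96317186-96317208) overlaps Hoxb3 and lies 993 bp from Hoxb4. Mir10b (chr2:74726074-74726096) overlaps Hoxd3 and Hoxd4. Whether these loci fall in exons or introns of the overlapping genes was not determined here.

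Of the 595 mouse probes, between 166 and 341 per array were above background in liver, and 212 passed the filter for testing. Above background means a net signal (mean signal minus local background) more than 2.6 scaled median absolute deviations over the median of 28 negative control spots. In liver this threshold was 1.92 units on vehicle 1 and 2.89 on BaP 1, scanned on the same day, with 341 and 267 probes above it. On the other arrays it was 16.2 to 28.8, with 166 to 220 probes above it. The hepatocyte miRNAs marked the tissue: miR-122, miR-192 and miR-194 stood at mean log2 ratios of 3.72, 2.89 and 2.63 in vehicle liver. The arrays' mean correlation with the others over the 212 tested ratios was 0.918 for vehicle 5, 0.946 for BaP 2 and 0.959 to 0.976 for the other 10 arrays. BaP 2 gave the highest ratio of the BaP group for 5 of the 7 members, against 28.8% of the 212 tested miRNAs, so the group differences and correlations that it moves most are also given without it. No correlation between miRNAs is given without vehicle 5, the array that agreed least with the others. Arrays were scanned on 4 days, each with both groups.

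In the vehicle livers every member had a mean ratio below 0, that is, a lower signal in liver than in the pool relative to the array as a whole. Of the 341 mouse miRNAs above background in the pool on at least 3 vehicle arrays, 73.3% also lay below 0, so that count is near the background. At least 2-fold lower were 4 of the 7 members (miR-99b, miR-125a-5p, miR-125b-5p and miR-10b), against 19.6% of the 341. The median ratio was -1.14 over the members and -0.25 over the 341. Liver against pool has no test here, because the pool is not a replicated group, and a dye preference of a probe cannot be told apart from a difference between liver and pool.

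MiR-99a stood closest to the pool, with a lowest, median and highest vehicle ratio of -0.66, -0.49 and -0.42, a mean of -0.50 ± 0.09 (SD, n = 6) or 1.42-fold lower in liver. MiR-100 ran from -0.83 over a median of -0.73 to -0.53, with a mean of -0.72 ± 0.11 (1.64-fold lower). MiR-99b, the member of the short chromosome 17 cluster, ran from -1.26 over -1.20 to -0.88, with a mean of -1.14 ± 0.15 (2.21-fold lower). The lowest miR-99a array lay above the highest miR-99b array, while miR-100 overlapped miR-99a.

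Both miR-125 members were far lower in liver. MiR-125a-5p ran from -2.06 over a median of -1.94 to -1.62 in the vehicle livers, with a mean of -1.89 ± 0.17 (SD, n = 6) or 3.72-fold lower. MiR-125b-5p ran from -2.87 over -2.74 to -2.50, with a mean of -2.73 ± 0.13 (6.66-fold lower). No vehicle array's miR-125b-5p ratio reached the miR-125a-5p range.

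The miR-10 paralogs lay far apart. MiR-10a ran from -1.19 over a median of -0.92 to -0.73 in the vehicle livers, with a mean of -0.94 ± 0.16 (SD, n = 6) or 1.92-fold lower. MiR-10b ran from -2.82 over -2.33 to -2.01, with a mean of -2.37 ± 0.30. Its net liver signal was above background on 2 of the 12 arrays, vehicle 1 and BaP 2. On vehicle 1 it passed at 2.54 units over that array's threshold of 1.92, while 11.8 units on vehicle 3 lay under a threshold of 16.2. Its ratio thus mostly sets a liver signal near background against a clear signal in the pool. The offset limits how low such a ratio can go: the mean was -3.21 with an offset of 16 and -4.04 with the software's processed signals, and no fold is given.

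**Figure D1:**
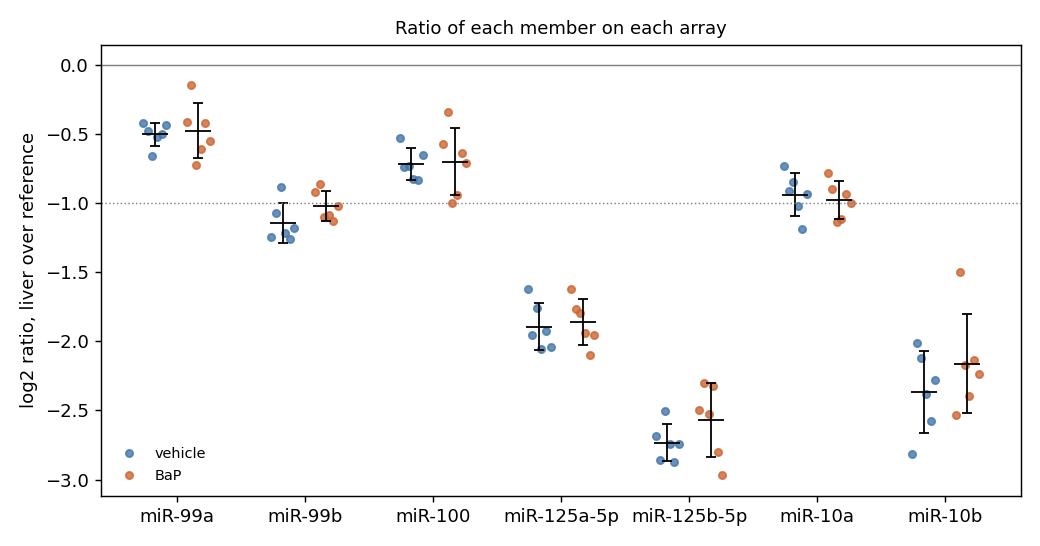
Log2 ratio of liver over pool (y axis) for the 7 members (x axis), 1 point per array for 6 vehicle and 6 BaP arrays, with bars for the group mean and SD and a dotted line at 2-fold lower. All 7 vehicle means lie below 0, from -0.50 for miR-99a to -2.73 for miR-125b-5p, and the vehicle and BaP points overlap for every member.

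From the highest to the lowest vehicle mean the order was miR-99a, miR-100, miR-10a, miR-99b, miR-125a-5p, miR-10b and miR-125b-5p. Neighbours in this order had overlapping ranges except miR-99b and miR-125a-5p, which lay 0.75 ± 0.20 (SD, n = 6) apart on the log2 scale. Compared on the same array, each member stood above the next on 6 of 6 vehicle arrays, apart from miR-10b, which stood above miR-125b-5p on 5 of 6. Those last positions were exchanged with a normexp offset of 16 and with the signals as processed by the scanner software, and apart from that exchange the order was the same under the 8 alternative settings of the signal processing. Without normalization within arrays, or with median centring, all 7 members were at least 2-fold lower in vehicle liver, but so were 44.0% and 37.2% of the 341.

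The raw net signals show where these ratios come from. MiR-125b-5p gave 306 to 1102 intensity units in liver and 4162 to 9492 in the pool over the 12 arrays. MiR-125a-5p gave 195 to 466 in liver and 1695 to 2935 in the pool. Both were above background in liver on 12 of 12 arrays, and their liver and pool ranges did not overlap.

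MiR-10a gave 69.4 to 278 units in liver and 469 to 1069 in the pool, and miR-100 gave 44.3 to 215 and 285 to 741. MiR-99a gave 29.0 to 103 units in liver and 157 to 375 in the pool, and miR-99b gave 33.2 to 98.3 and 328 to 682. These 6 members were above background in liver on 12 of 12 arrays, and all 7 were in the pool. MiR-10b gave -7.08 to 40.1 units in liver but 455 to 962 in the pool. For signals near or under the offset of 50 that the background correction adds, as for miR-99a, miR-99b and miR-10b in liver, the log2 ratios understate the difference. Normalization within arrays moved the ratios too. Without it the vehicle means were -1.39 for miR-99a, -2.12 for miR-99b, -1.72 for miR-100, -1.98 for miR-10a and -2.76 for miR-125a-5p. The folds given above therefore hold for the normalization used here. Signals of different probes are not a measure of which miRNA is more abundant, and in whole liver fewer cells of a type and less miRNA per cell cannot be told apart.

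**Figure D2:**
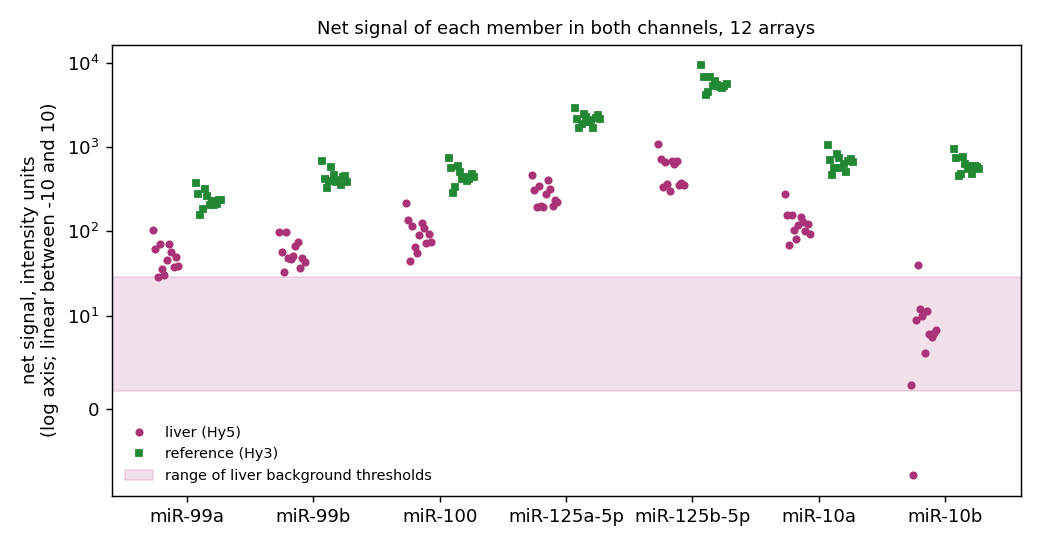
Net signal (mean signal minus local background, intensity units on a log axis that is linear between -10 and 10) of the 7 members in the liver and the pool channel, 1 point per array, 12 arrays. The band spans the arrays' liver background thresholds, 1.92 to 28.8. Every member's pool signals lie above its liver signals, and miR-10b alone has liver signals that reach below 0, down to -7.08.

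Paralogs that share a seed were then compared as the difference of their log2 ratios on the same array, for 5 pairs. MiR-99a exceeded miR-99b by 0.22 to 0.83 on the 6 vehicle arrays, with a mean of 0.64 ± 0.22 (SD), so that its liver-to-pool ratio was 1.56-fold higher. MiR-99a exceeded miR-100, its near-identical paralog, by 0.07 to 0.33, with a mean of 0.22 ± 0.11 (1.16-fold). MiR-99b lay below miR-100 on each array, with differences of -0.72 to -0.15 and a mean of -0.42 ± 0.19 (1.34-fold).

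The miR-125 pair was separated more widely: miR-125a-5p exceeded miR-125b-5p by 0.69 to 1.06, with a mean of 0.84 ± 0.15 (SD, n = 6) or 1.79-fold. MiR-10a exceeded miR-10b by 1.1 to 2.09, with a mean of 1.43 ± 0.34. Because miR-10b was above background in liver on 1 of the 6 vehicle arrays, the size of this difference is set by the offset, and it was 2.12 with an offset of 16 and 2.53 with processed signals. Vehicle 1 gave that highest value, and the other vehicle arrays lay between 1.1 and 1.39. The "a" paralog thus had the higher ratio in each of the 3 a and b pairs, on 12 of 12 arrays with the BaP arrays included.

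Each of the 5 differences had a two-sided exact sign-flip permutation p of 0.03125 over the 6 vehicle arrays, the smallest that 6 arrays can give, and 0.03125 after Benjamini-Hochberg adjustment over the 5 pairs. For the miR-10 pair this p bears on the sign alone, since the miR-10b signal in liver was mostly not above background. For miR-99a and miR-100 it rests on the background-corrected and normalized ratios, since the raw signals gave the reverse order on vehicle 1. Over all 12 arrays each exact permutation p was 0.000488. These tests cover the spread between arrays, and a dye preference that differs between a pair of probes cannot be told apart from a difference between paralogs.

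**Figure D3:**
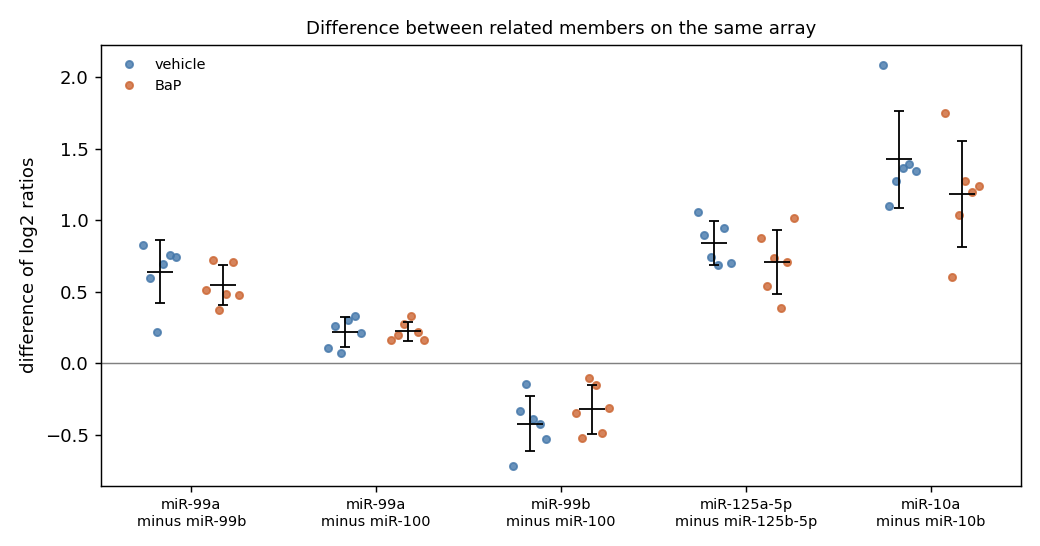
Difference of log2 ratios between paralogs on the same array (y axis) for 5 pairs (x axis), 1 point per array, with bars for the group mean and SD. Each pair lies on a single side of 0 on all 12 arrays, and miR-10a minus miR-10b is highest on vehicle 1, at 2.09.

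The clusters allow the same comparison between miRNAs that are encoded side by side. On chromosome 16, miR-99a had a vehicle ratio 2.23 ± 0.20 (SD, n = 6) above that of miR-125b-5p on the log2 scale. On chromosome 9, miR-100 lay 2.02 ± 0.15 above miR-125b-5p. On chromosome 17, miR-99b lay 0.75 ± 0.20 above miR-125a-5p. In each cluster the miR-99/100 member had the higher ratio and the miR-125 member the lower one, on 12 of 12 arrays. The signal of miR-125b-5p cannot be divided between its hairpins, and let-7a and let-7c are also encoded at further loci.

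The let-7 neighbours did not take a fixed place between them. Let-7 miRNAs are abundant regulators of growth genes in differentiated tissue. Let-7c had a vehicle ratio of -0.91 ± 0.21 (SD, n = 6), which lay 1.83 ± 0.09 above miR-125b-5p and 0.41 ± 0.28 below miR-99a, below it on 5 of 6 vehicle arrays. Let-7a, at -1.30 ± 0.15, lay 0.59 ± 0.19 below miR-100 and 1.43 ± 0.10 above miR-125b-5p. Let-7e, at -0.11 ± 0.24, was the highest of its cluster, 1.03 ± 0.20 above miR-99b and 1.78 ± 0.13 above miR-125a-5p.

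**Figure D4:**
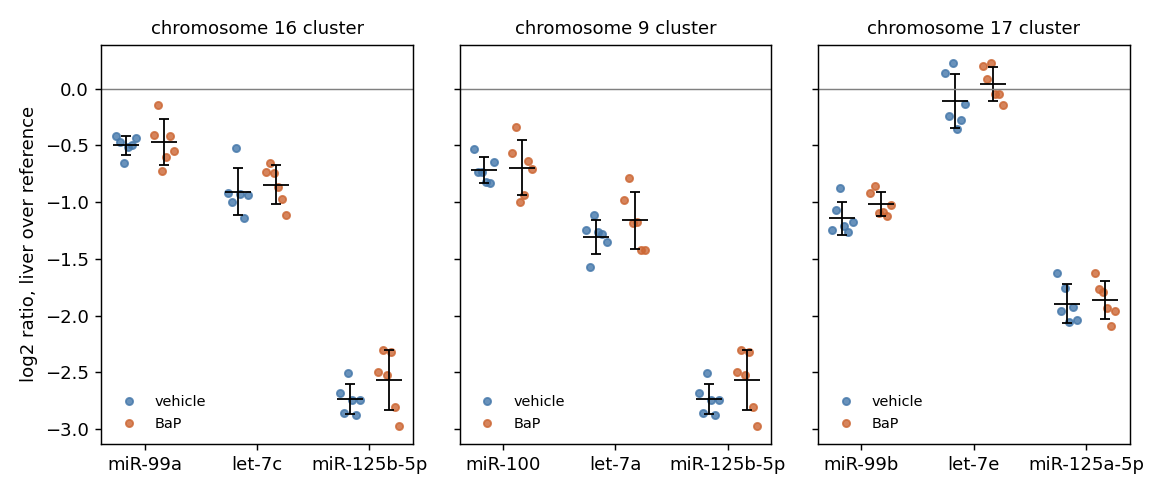
Log2 ratio of liver over pool (y axis) for the miRNAs of the 3 clusters in their genomic order (x axis), 1 point per array, 12 arrays, with bars for the group mean and SD. The miR-125 member is the lowest of each cluster, and let-7e on chromosome 17 stands highest of its cluster at -0.11 in vehicle liver.

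Strand partners, made from the other arm of the same hairpin, were on the array for 6 names and tested for 2. MiR-99b* had a vehicle ratio of 0.48 ± 0.08 (SD, n = 6) and miR-125b-3p, whose probe is also named for human miR-125b-1*, had 0.94 ± 0.13. Both lay above 0 while their partners lay below it: the difference was -1.62 ± 0.14 for miR-99b minus miR-99b* and -3.67 ± 0.18 for miR-125b-5p minus miR-125b-3p, negative on 12 of 12 arrays. A ratio above 0 is relative to the array as a whole and does not mean a higher raw signal in liver. The mean vehicle net signals were 55.1 in liver and 83.6 in the pool for miR-99b*. For miR-125b-3p they were 136 and 141. MiR-125a-3p was above background in liver on 2 arrays, miR-125b* and miR-10a* on 1 each, and miR-10b* on 0. Of other miRNAs of the Hox clusters, miR-196a, miR-196b and miR-615-5p were above background in liver on 0 arrays. MiR-615-3p was above it on 11, with a vehicle ratio of 0.23 ± 0.26, or 0.12 without vehicle 5, which stood at 0.77.

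The study's main question was whether BaP changed miRNA levels in liver. With limma's moderated test across the 212 tested miRNAs, 0% had an adjusted p under 0.05 (0 of 212, and the smallest adjusted p was 0.789), and 0 of the 6 tested members did. At an unadjusted p under 0.05, limma called 0.943% of the 212 and 0 members. An exact permutation test of each miRNA over all regroupings of the 12 arrays gave the 6 members p-values from 0.132 to 0.861. The groups overlapped for every member, and 0% of the 212 had groups that did not overlap.

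MiR-99b came closest among the members. Its BaP ratios ran from -1.13 over a median of -1.05 to -0.86, with a mean of -1.02 ± 0.11 (SD, n = 6), against -1.14 ± 0.15 in vehicle livers. The difference was 0.12 on the log2 scale, with a 95% interval of -0.04 to 0.28 (exact permutation p = 0.132, limma adjusted p = 0.992). All 6 BaP arrays lay above the vehicle median of -1.20, but vehicle 3 at -0.88 lay above 5 of the 6 BaP arrays. Within scan days the difference ran from -0.0077 to 0.33 and was positive on 3 of 4. Leaving out 1 array gave 0.09 (without BaP 2) to 0.17 (without vehicle 3).

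MiR-125b-5p ran from -2.97 over a median of -2.51 to -2.30 in the BaP livers, with a mean of -2.57 ± 0.27 (SD, n = 6). The difference from vehicle was 0.16, with an interval of -0.08 to 0.41 (exact permutation p = 0.201, limma adjusted p = 0.992). It had the widest interval of the 6, and the scanner software flagged 79.2% of its spots as outliers, against 7.12% of all spots. On BaP 4 all 4 of its spots were flagged, and 1 of them read 34737 units in liver where the other 3 read 568 to 755. The mean of that array was -2.32 and the median of its spots -2.75. With the median of spots on every array, the group means were -2.73 ± 0.13 and -2.63 ± 0.25, and the difference fell to 0.10. Within scan days the difference ran from -0.14 to 0.48, and leaving out 1 array gave 0.11 (without BaP 2) to 0.24 (without BaP 6).

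The other 4 tested members differed by at most 0.04 in either direction. MiR-125a-5p had a BaP mean of -1.86 ± 0.17 (SD, n = 6), ranging from -2.10 over a median of -1.86 to -1.62, and a difference of 0.03 (interval -0.17 to 0.24). MiR-99a had a BaP mean of -0.47 ± 0.20, ranging from -0.73 over -0.48 to -0.14, and a difference of 0.03 (interval -0.16 to 0.22). MiR-100 had a BaP mean of -0.70 ± 0.24, ranging from -0.997 over -0.67 to -0.34, and a difference of 0.02 (interval -0.20 to 0.24).

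MiR-99a and miR-100 were both highest on BaP 2, at -0.14 and -0.34, and without that array their differences were -0.04 and -0.05. MiR-10a had a BaP mean of -0.98 ± 0.13 (SD, n = 6), ranging from -1.13 over a median of -0.96 to -0.78, and a difference of -0.04 (interval -0.22 to 0.14). On vehicle 6, 1 flagged miR-10a spot read 44460 units where the other 3 read 113 to 128, and it was left out. Each of these 4 had an adjusted p of 0.992 with limma.

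MiR-10b was not tested. Its BaP ratios ran from -2.54 over a median of -2.20 to -1.50, with a mean of -2.16 ± 0.36 (SD, n = 6), and the measured difference was 0.20. The highest value was that of BaP 2, the only BaP array where it was above background, and without it the BaP mean was -2.29 and the difference 0.07.

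**Figure D5:**
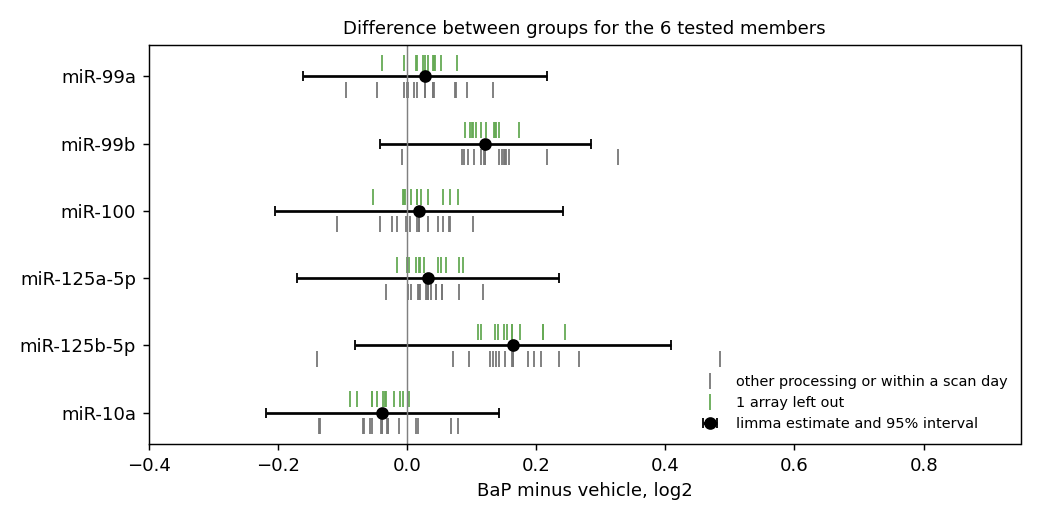
BaP minus vehicle difference of log2 ratios (x axis) for the 6 tested members (y axis), as points with limma's 95% intervals. Green ticks give the difference with 1 array left out, and grey ticks give it under other processing or within each of the 4 scan days. All 6 intervals span 0, from 0.12 for miR-99b and 0.16 for miR-125b-5p to -0.04 for miR-10a.

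In fold terms the 6 intervals reached from 0.860 to 1.33, and each member's own interval was narrower than this joint range. Higher in BaP were 5 of the 6 tested members, against 59.4% of the 212, a share that ran from 42.0% without normalization to 83.0% with median centring. The sign turned under at least 1 alternative setting of the processing for miR-99a, miR-100, miR-125a-5p and miR-10a. The median difference was 0.03 over the tested members and 0.02 over the 212.

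The differences between paralogs were also compared between the groups. MiR-99a minus miR-99b was 0.55 ± 0.14 (SD, n = 6) in the BaP livers, miR-99a minus miR-100 was 0.22 ± 0.07, and miR-99b minus miR-100 was -0.32 ± 0.17. MiR-125a-5p minus miR-125b-5p was 0.71 ± 0.23, and miR-10a minus miR-10b was 1.18 ± 0.37. The change from vehicle ran from -0.24 for the miR-10 pair to 0.10 for miR-99b minus miR-100. For the miR-125 pair it was -0.13, or -0.07 without BaP 4, whose miR-125b-5p value includes the outlying spot. The two-sided exact permutation p-values over all regroupings ran from 0.253 to 0.872, or 0.506 to 0.872 after Benjamini-Hochberg adjustment over the 5 pairs.

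Among the cluster neighbours, let-7a, let-7c and let-7e had BaP minus vehicle differences of 0.14, 0.06 and 0.15, and 0 of 3 passed the limma test. The strand partners miR-99b* and miR-125b-3p differed by 0.03 and -0.04, and miR-615-3p by -0.08, or 0.02 without vehicle 5. None of these 6 miRNAs had an adjusted p under 0.05.

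Markers of other liver cell types are given beside these values. Of the mesenchymal (smooth muscle and stellate cell) miRNAs, 5 of 5 were at least 2-fold lower in vehicle liver than in the pool, with ratios of -2.45 to -1.28. So were 4 of the 7 members, and 19.6% of the 341 mouse miRNAs above background in the pool. The mesenchymal miRNAs had BaP minus vehicle differences of 0.02 to 0.19. Of the endothelial miRNAs, miR-126-3p stood at -1.59 and miR-126-5p at -0.19. Of the blood cell miRNAs, 4 of 6 were at least 2-fold lower, with ratios of -3.38 to 0.09 and differences of -0.28 to 0.0026. The 0.09 and the -0.28 were those of miR-150, which stood at 1.60 on vehicle 5, and without that array they were -0.21 and 0.02. The hepatocyte miRNAs differed by -0.03 to 0.13. No marker passed the limma test, and the part of cell composition in the members' values was not tested.

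How the members moved together from array to array was described with Pearson's r of deviations from the group means, over 12 arrays that share the reference pool and the normalization. MiR-99a and miR-100 had an r of 0.89 (0.79 without BaP 2), and miR-100 and miR-10a 0.77 (0.87 without BaP 2). MiR-125a-5p and miR-125b-5p had 0.51 (0.47 without BaP 2), miR-99a and miR-99b 0.16 (-0.26), and miR-10a and miR-10b 0.02 (-0.16). The highest r of the 21 pairs was that of miR-99a and miR-100 with all arrays, and that of miR-100 and miR-10a without BaP 2. Every r of miR-125b-5p, here and below, includes its BaP 4 value with the outlying spot, and r without that value was not computed.

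Within the clusters r was 0.09 for miR-99a with miR-125b-5p, 0.12 for miR-100 with miR-125b-5p and 0.40 for miR-99b with miR-125a-5p. Without BaP 2 these were -0.39, -0.25 and 0.36, so that array alone turned the sign of the former pairs. The r was higher between the miR-125 members and let-7: 0.82 for miR-125b-5p with let-7c, 0.81 with let-7a, and 0.81 for miR-125a-5p with let-7e, or 0.79, 0.76 and 0.81 without BaP 2. Values as high were also found with miRNAs outside these clusters, such as 0.90 for miR-100 with miR-152. Let-7e was not among the 3 tested miRNAs most like miR-125a-5p. The 3 tested miRNAs most like miR-125b-5p were let-7f (0.84), let-7c and let-7a. Without BaP 2 they were let-7f (0.81), miR-208b (0.79) and let-7c.

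The most alike outside the family was miR-152 for both miR-99a (0.80) and miR-100 (0.90). Without BaP 2 that place went to miR-19a for miR-99a (0.94, against 0.65 for miR-152) and to miR-19b for miR-100 (0.94, against 0.84 for miR-152). For miR-99b it was miR-214 (0.82), for miR-125a-5p it was miR-126-3p (0.92), and for miR-10a it was miR-191 (0.91). Without BaP 2 the first place was the same for miR-99b (0.78) and miR-125a-5p (0.91), and for miR-10a it went to miR-106b (0.95, against 0.91 for miR-191). With all arrays the next were miR-22* and miR-19a for miR-99a, miR-361 and let-7c for miR-99b, miR-107 and miR-191 for miR-100, let-7g and miR-381 for miR-125a-5p, and miR-300* and miR-107 for miR-10a. These likenesses were picked as the highest over all tested miRNAs and hold no test.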

How the data were processed

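Per the labels, liver RNA (Hy5) and a commercial pool (Hy3) were hybridised on 12 Exiqon miRNA arrays. The authors deposited linear spot intensities, read out by Agilent Feature Extraction (version 9.5.3.1 in the submitters' processing notes). The mean signals and median local backgrounds used here are not normalized. Replicate numbers follow the order of deposit and only name arrays, and no label links an array to a named animal. The p-values therefore cover only the spread between these samples, which may be technical.

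In limma (3.58.1, under R 4.3.3), normexp background correction with an offset of 50 was followed by loess within each array, in which control, unnamed and outlier-flagged spots had weight 0. A probe's value is the mean of its unflagged spots, or of all 4 where all were flagged, as for miR-125b-5p on 6 arrays. Tests with lmFit and eBayes on log2 ratios took the 212 miRNAs whose liver signal was above background on 3 or more arrays of either group, with Benjamini-Hochberg adjustment. The script was tested on simulated data. Paralogs were compared by exact sign-flip permutation. Over the 66 pairs of arrays, the SD of differences between log2 ratios was 0.117 for the closest pair, against a median of 0.25, and no array was treated as a repeat. Precision is limited by the number of arrays.

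The members, lists and tests were chosen with earlier results of these data known. Correlations without BaP 2 and marker values without vehicle 5 were added after seeing the data. Besides the members, the named miRNAs were strand partners, cluster and Hox neighbours, cell type markers and, for each tested member, the 3 miRNAs with the highest r. The alternatives changed background correction, normalization, spot averaging, filters, scan day and arrays. The series' value table was not used, since it holds no value for the 7 members. Sequences and loci are from RefSeq (GRCm38.p6), in which all 7 members matched.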

Additional observations from a re-analysis of the deposited data

Results flagged for a closer look

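The difference miR-10a minus miR-10b was 2.09 on vehicle 1, apart from the other 5 vehicle arrays, of which the next was 1.39. The gap took 0.706 of the group's whole range and passed Dixon's 95% critical value for 6 samples. It was 1 of 24 groups of values examined, and chance sets off this test in about 1 in 20. On that array the net liver signal of miR-10b was 2.54 units, over a background threshold of 1.92, the lowest threshold of the 12 arrays. Its pool signal of 962 units was the highest of the 12 for miR-10b. BaP 1, the only other array scanned that day, gave the highest difference of the BaP group, 1.75. Its miR-10b liver signal was -7.08 units, and its background threshold was 2.89. Without vehicle 1 the mean difference was 1.29.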

How the results depend on the processing

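No paired analysis was possible because the labels give the groups no shared replicate numbers. All 7 members had vehicle means below 0 under every alternative run, and 73.3% of the 341 did in the main setting. The count at least 2-fold lower was 4 to 6 except without normalization within arrays and with median centring, where it was 7 and 7. Of the 341, 19.6% were as low in the main setting, 44.0% without normalization and 37.2% with median centring. With an offset of 16 (5 members) the share was 25.2%, and with processed signals (6 members) it was 40.2%. The paralog differences kept their sign throughout: miR-99a minus miR-99b ran from 0.55 to 0.80, miR-99a minus miR-100 from 0.14 to 0.33, miR-99b minus miR-100 from -0.55 to -0.32, miR-125a-5p minus miR-125b-5p from 0.59 to 0.87, and miR-10a minus miR-10b from 1.18 to 2.53, the last with the scanner software's processed signals. The comparison within the BaP arrays was added after seeing the data. Leaving out 1 vehicle array gave an exact permutation p of 0.0625, the smallest 5 arrays allow, with ranges of 0.60 to 0.72, 0.19 to 0.24, -0.48 to -0.37, 0.80 to 0.87 and 1.29 to 1.49 in the same order.

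The count of miRNAs passing the test between BaP and vehicle was 0 under all 26 alternatives run. Signs of the small differences turned. With an offset of 16, miR-125a-5p stood at -0.032. Without background correction, miR-100 stood at -0.0019. Processed signals gave 0.079 for miR-10a and -0.026 for the change in miR-99a minus miR-100. Without normalization, miR-99a stood at -0.0045 and that change at -0.0087. Median centring gave 0.068 for miR-10a and -0.0087 for the change, and the median of spots gave -0.0083 for the change. Liver signals alone gave 0.018 for miR-10a scaled to the 75th percentile and 0.014 quantile normalized. With scan day as a block, miR-100 stood at -0.015. Within scan day 1 it stood at -0.041. Within day 2, miR-99a stood at -0.047, miR-100 at -0.023 and miR-125b-5p at -0.14. Within day 3, miR-99b stood at -0.0077. Within day 4, miR-99a stood at -0.095 and miR-100 at -0.11. Leaving out 1 array gave -0.039 to 0.077 for miR-99a, -0.053 to 0.078 for miR-100, -0.015 to 0.087 for miR-125a-5p, -0.088 to 0.0037 for miR-10a, and -0.020 to 0.032 for the change in miR-99a minus miR-100. The cause of these turns was not tested. The series' own value table was not run as an alternative. With liver signals near background, miR-10b and the lower arrays of miR-99a and miR-99b are the least precise.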
